A study of Mus musculus with 9 samples.

Results

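Mitochondrial fatty acid oxidation and the targets of the PPAR nuclear receptors were examined as a set of 35 mouse genes in sorted intestinal stem cells. The genes were chosen by name for their roles in beta-oxidation, the carnitine shuttle and PPAR signalling, and each was matched to 1 Ensembl identifier among the 57180 rows of the count table. The study sequenced mRNA libraries, 9 in all, from Lgr5-GFP+ cells of the mouse small intestine. In the KO day 4 and KO day 3 groups, mice with floxed Kansl1 alleles and an Lgr5-EGFP-CreERT2 allele had received tamoxifen each day for 4 or 3 days. Control mice, whose genotype label is KANSL1-WT, received corn oil, and the labels do not say whether they carried floxed alleles. Each group had 3 libraries, and the labels do not say that these came from separate animals, so the error behind each p-value is that between libraries, which may be technical. GFP and the recombinase come from the same Lgr5 allele, so recombination and sorting both depend on Lgr5 expression. Knockout and tamoxifen went together in every comparison with control, and day of knockout went together with number of tamoxifen doses.

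In beta-oxidation, a fatty acid is joined to coenzyme A, carried into the mitochondrion as a carnitine ester, and shortened in repeated rounds of dehydrogenation, hydration, another dehydrogenation and thiolysis. Electrons from the first step pass through the electron transfer flavoprotein to the respiratory chain. PPAR-alpha and PPAR-delta, bound to DNA with a retinoid X receptor, activate many genes of this pathway in response to fatty acids, and in mouse intestinal stem cells Cpt1a and PPAR-delta are known for supporting stem cell function. KANSL1 is a subunit of the NSL complex, in which the acetyltransferase KAT8 acetylates histones.

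The libraries held 11174583 to 16943055 counts at KO day 4, 8400458 to 21484679 at KO day 3 and 12164479 to 17913787 in controls. Counts from genes of the mitochondrial genome made up 66.9% to 72.1% of the KO day 4 libraries, 19.0% to 32.4% of the KO day 3 libraries and 16.4% to 25.8% of the controls. Levels are therefore given as CPM of library sizes scaled by the trimmed mean of M values (TMM), with factors of 0.40 to 0.50 at KO day 4, 1.22 to 1.40 at KO day 3 and 1.44 to 1.83 in controls. Kansl1 counts stood at 2.93, 5.09 and 8.96 CPM at KO day 4, 2.81, 2.99 and 2.55 CPM at KO day 3, and 4.46, 11.4 and 9.83 CPM in controls. Of the libraries labelled KO day 4, replicates 2 and 3 lay within the control range of this gene, the deleted exons are not given in the sources used here, and groups are called by their labels throughout. Lgr5, the gene behind the sort, stood at 22.3, 26.7 and 14.8 CPM at KO day 4, 19.4, 38.9 and 33.6 CPM at KO day 3, and 30.6, 34.8 and 39.3 CPM in controls. Correlations of log CPM with the other libraries of the group were lowest for KO day 4 replicate 3, at 0.897 and 0.903, and for KO day 3 replicate 1, at 0.937 and 0.941.

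Of the 35 genes, 34 passed the filter on low counts and were tested with edgeR's quasi-likelihood test with Benjamini-Hochberg adjustment at 0.05. At KO day 4 against control, 19 of the 34 fell and none rose, where 11.5% of all 13405 tested genes were called lower and 22.5% were called in either direction. The median log2 fold change of the 34 genes was -1.10, beside -0.06 over all tested genes. The genes that fell included 5 of 7 acyl-CoA dehydrogenases, 7 of 8 enzymes of the later and auxiliary steps, all 3 carnitine shuttle genes, 2 of 3 electron transfer genes, 1 of 4 genes of acyl-CoA activation and release, and 1 of 5 tested PPAR targets. None of the 3 PPAR receptors and the coactivator gene Ppargc1a passed the test in either direction. Of the 34 genes 23 had an unadjusted p under 0.05 by edgeR in this comparison, beside 36.5% of all tested genes. DESeq2 called 20 lower and none higher, where it called 14.7% of all tested genes lower and 15.6% higher. Limma voom called 19 lower and 1, Pparg, higher, where it called 15.2% of all tested genes lower and 15.3% higher.

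In 21 of the 34 genes every KO day 4 library lay below every control library, beside 26.4% of all tested genes, and in 1, Ppard, every KO day 4 library lay above, beside 20.6% of all tested genes. Cpt1a and Cpt2 were called lower although their groups overlapped. Summed over the 35 genes, the level was 1108, 940.4 and 889 CPM at KO day 4, 2167, 1763 and 1365 CPM at KO day 3, and 2034, 2079 and 1510 CPM in controls. All 3 KO day 4 sums lay below the lowest sum of the other groups, and the KO day 3 and control sums overlapped. Fewer cells of a type and less RNA per cell cannot be told apart in these bulk samples.

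**Figure D1:**
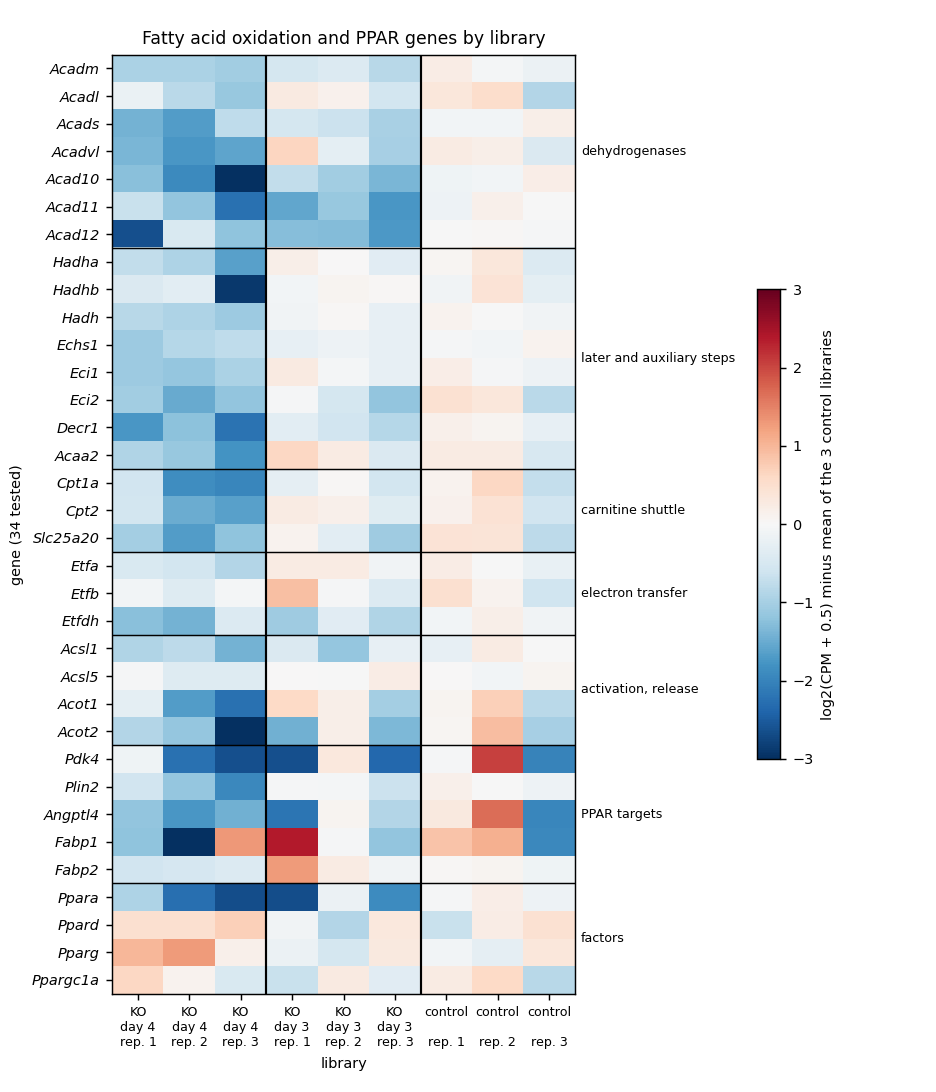
Heat map of the 34 tested genes, grouped by role, in the 9 libraries; colour gives log2(CPM + 0.5) minus the mean of the 3 control libraries, with blue lower and red higher. The enzymes are mostly blue in the KO day 4 libraries, the KO day 3 columns are mixed, and Pdk4, Angptl4 and Fabp1 spread widely among the 3 controls.

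At KO day 3 against control, none of the 34 genes was called in either direction by edgeR, where 0.44% of all tested genes were called, and 7 had an unadjusted p under 0.05, which 15.8% of all tested genes had. DESeq2 called 3 of them lower, beside 3.6% of all tested genes, limma voom called 8 lower, beside 7.03%, and neither called any higher. Their median log2 fold change was -0.23, beside -0.02 over all tested genes, and 28 of the 34 fold changes were below 0. In 9 genes every KO day 3 library lay below every control library, beside 18% of all tested genes. Between the knockout groups, 10 of the 34 genes were lower at KO day 4 than at KO day 3 and none was higher by edgeR's adjusted p, where 6.03% of all tested genes were called lower, 6.52% higher and 12.5% in either direction; the median was -0.84, beside -0.02. DESeq2 called 12 lower, beside 10.1% of all tested genes, limma voom called 7 lower, beside 4.95%, and neither called any higher. In 14 genes every KO day 4 library lay below every KO day 3 library, beside 17% of all tested genes. The comparisons of KO day 4 with control and with KO day 3 share the KO day 4 libraries.

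**Figure D2:**
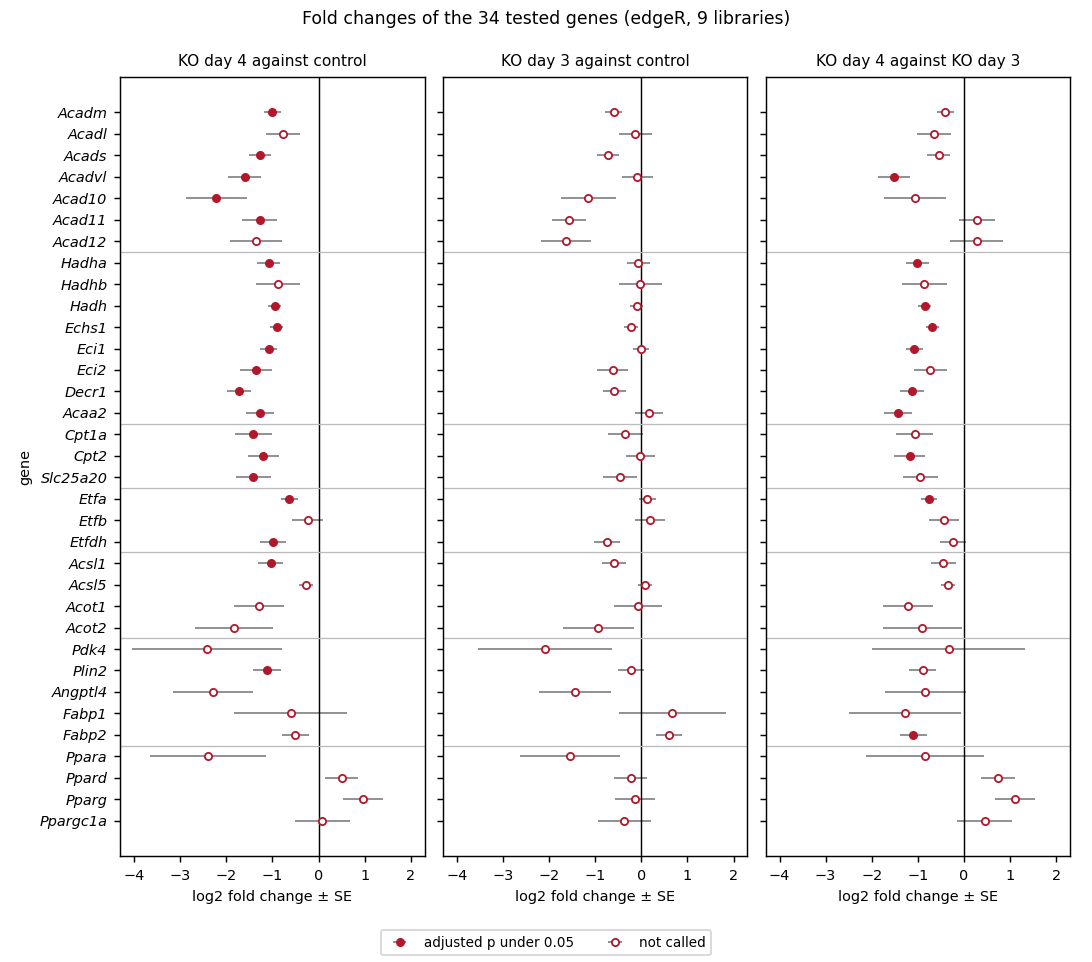
Log2 fold change with its standard error for each of the 34 tested genes in the 3 comparisons (edgeR, 9 libraries in 1 fit); filled points have an adjusted p under 0.05. Filled points number 19 at KO day 4 against control, 0 at KO day 3 against control and 10 at KO day 4 against KO day 3, and all lie left of 0.

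The acyl-CoA dehydrogenases catalyse the first step of each round and differ in the chain length they prefer. Acadm, the medium-chain dehydrogenase (chromosome 3, 153922357 to 153944632, GRCm38), was at 23.8, 23.7 and 22.2 CPM at KO day 4, 31.7, 34.9 and 25.7 CPM at KO day 3, and 54.3, 44.7 and 40.7 CPM in controls. The 3 groups did not overlap one another, with KO day 4 lowest and controls highest. Its log2 fold change was -1.0 at KO day 4 (SE 0.18, edgeR adjusted p = 0.0040) and -0.60 at KO day 3 (SE 0.18, edgeR adjusted p = 0.14). Acads, the short-chain dehydrogenase, was at 17.2, 14.5 and 27.5 CPM at KO day 4, 32.6, 30.0 and 23.7 CPM at KO day 3, and 44.5, 44.2 and 52.9 CPM in controls. Both knockout groups lay below all controls and overlapped each other through KO day 4 replicate 3. It fell by 1.27 on the log2 scale at KO day 4 (SE 0.24, edgeR adjusted p = 0.0049), and the value at KO day 3 was -0.72 (SE 0.23, edgeR adjusted p = 0.17).

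Acadvl, the very-long-chain dehydrogenase of the inner membrane (chromosome 11, 70010183 to 70015411), was at 39.5, 29.9 and 33.6 CPM at KO day 4, 161, 83.8 and 51.0 CPM at KO day 3, and 122, 116 and 75.6 CPM in controls. Every KO day 4 library lay below all 6 others, while KO day 3 spanned the control range, from its replicate 3 below all controls to its replicate 1 above them. The log2 fold change at KO day 4 was -1.60 against control (SE 0.35, edgeR adjusted p = 0.0095) and -1.52 against KO day 3 (SE 0.35, edgeR adjusted p = 0.021). Reads of Acadvl share 1151 exon bases with Dvl2 on the opposite strand, and without a known strand setting the reads of these bases cannot be assigned to one of them. Exons of 9 of the 35 genes overlap exons of other genes: those of Acadvl, Acsl1, Acsl5, Echs1, Eci2, Etfdh and Hadha on the opposite strand, those of Etfb on the same strand, and those of Acad11 on both. A strand setting would not separate the reads of Etfb, or the 163 bases that Acad11 shares on its own strand.

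Acad10 and Acad11, dehydrogenases that also carry a kinase-like domain, had low counts. Acad10 was at 2.81, 1.59 and 0 CPM at KO day 4, 4.18, 3.34 and 2.55 CPM at KO day 3, and 6.68, 6.91 and 8.58 CPM in controls. Acad11 was at 8.32, 5.72 and 2.46 CPM at KO day 4, 4.26, 5.89 and 3.69 CPM at KO day 3, and 12.2, 15.2 and 13.5 CPM in controls. For both genes every knockout library of either day lay below every control. Acad10 fell at KO day 4 by 2.22 on the log2 scale (SE 0.66, adjusted p = 0.034 by edgeR) and Acad11 by 1.27 (SE 0.38, edgeR adjusted p = 0.034). At KO day 3 the log2 fold changes were -1.15 for Acad10 (edgeR adjusted p = 0.38) and -1.56 for Acad11 (edgeR adjusted p = 0.090). Without KO day 4 replicate 3, which takes part in the shared estimate of the spread, Acad11 was called at KO day 3 with the same fold change (edgeR adjusted p = 0.022). Acad11 did not differ detectably between the knockout groups, with a log2 fold change of 0.29 and a 95% interval from -0.56 to 1.14.

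Acad12, a paralogue beside Acad10, shared 15.7% of its 50-base words with it, and 16.8% of those of Acad10 occur in Acad12, so reads of this pair may be split. Its level ranged from 0.586 to 4.45 CPM at KO day 4, 1.56 to 2.3 CPM at KO day 3 and 6.11 to 6.51 CPM in controls. Both knockout groups lay below the controls, but neither comparison passed the test (edgeR adjusted p = 0.11 at KO day 4 and 0.18 at KO day 3). Acadl, the long-chain dehydrogenase, ranged from 20.2 to 38.9 CPM at KO day 4, 30.6 to 54.1 CPM at KO day 3 and 24.2 to 64.8 CPM in controls, and all its groups overlapped. Acadl and Acad12 were the dehydrogenases that were not called at KO day 4.

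The later steps are carried out by hydratases, hydroxyacyl-CoA dehydrogenases and thiolases, with isomerases and a reductase for unsaturated chains. Hadh, the medium- and short-chain hydroxyacyl-CoA dehydrogenase (chromosome 3, 131233419 to 131272101), was at 147, 136 and 122 CPM at KO day 4, 245, 268 and 221 CPM at KO day 3, and 283, 261 and 242 CPM in controls. Every KO day 4 library lay below all 6 others, and KO day 3 overlapped the controls. Hadh fell at KO day 4 by 0.95 on the log2 scale against control (SE 0.14, edgeR adjusted p = 0.0016) and by 0.85 against KO day 3 (SE 0.14, edgeR adjusted p = 0.0063). The value at KO day 3 against control was -0.10, with a 95% interval from -0.41 to 0.21.

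Echs1, the short-chain enoyl-CoA hydratase, was at 47.8, 56.3 and 60.7 CPM at KO day 4, 86.3, 91.9 and 86.2 CPM at KO day 3, and 101, 96.3 and 111 CPM in controls. The groups were in that order without overlap. It fell at KO day 4 by 0.91 on the log2 scale against control (SE 0.15, edgeR adjusted p = 0.0020) and by 0.68 against KO day 3 (SE 0.15, edgeR adjusted p = 0.015), and the KO day 3 value was -0.22 (edgeR adjusted p = 0.50).

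Decr1, the dienoyl-CoA reductase needed for polyunsaturated chains (chromosome 4, 15917240 to 15945507), was at 13.8, 20.03 and 9.85 CPM at KO day 4, 38.3, 32.0 and 26.3 CPM at KO day 3, and 53.3, 50.9 and 40.5 CPM in controls. No 2 groups overlapped. Its log2 fold change was -1.72 at KO day 4 against control (SE 0.26, edgeR adjusted p = 0.0015), -1.13 at KO day 4 against KO day 3 (SE 0.26, edgeR adjusted p = 0.019) and -0.58 at KO day 3 against control (SE 0.25, edgeR adjusted p = 0.28). Eci1, an enoyl-CoA isomerase for monounsaturated chains, was at 26.3, 24.8 and 29.1 CPM at KO day 4, 68.0, 54.1 and 47.4 CPM at KO day 3, and 64.2, 54.6 and 50.8 CPM in controls. KO day 4 lay below both other groups, which overlapped each other and had a fold change of 0.00 on the log2 scale between them, with a 95% interval from -0.39 to 0.38. The fall at KO day 4 was by 1.08 against control (SE 0.18, edgeR adjusted p = 0.0024) and by 1.08 against KO day 3 (SE 0.18, edgeR adjusted p = 0.0061).

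Eci2, the second isomerase of the set, was at 24.6, 17.6 and 22.2 CPM at KO day 4, 50.1, 35.3 and 22.1 CPM at KO day 3, and 70.9, 65.2 and 28.8 CPM in controls. KO day 4 lay below the controls and overlapped KO day 3, whose replicate 3 stood at the level of KO day 4. It fell at KO day 4 by 1.35 on the log2 scale (SE 0.35, adjusted p = 0.021 by edgeR). Acaa2, a mitochondrial thiolase, was at 97.6, 82.0 and 51.9 CPM at KO day 4 and 279, 215 and 134 CPM at KO day 3. Its controls were at 217, 215 and 129.8 CPM. Every KO day 4 library lay below all others. Acaa2 fell by 1.27 on the log2 scale against control (SE 0.30, edgeR adjusted p = 0.014) and by 1.44 against KO day 3 (SE 0.30, edgeR adjusted p = 0.015).

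Hadha and Hadhb encode the alpha and beta subunits of the mitochondrial trifunctional protein, which performs the later steps on long chains. The genes lie head to head on chromosome 5, with RefSeq start sites at 30154980 for Hadha on the minus strand and 30155253 for Hadhb on the plus strand, 272 bases apart. The stretch between the 2 genes as GENCODE M21 bounds them is shown because both are transcribed away from it. It is 85 bases long with 69.4% G or C, lies at chr5:30155163-30155247 (RefSeq, GRCm38.p6, plus strand, no bases marked), and reads as follows.
Hadha and Hadhb: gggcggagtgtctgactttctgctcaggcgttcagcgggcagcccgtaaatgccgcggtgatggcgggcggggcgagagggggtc

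Hadha was at 74.1, 65.3 and 39.6 CPM at KO day 4, 141, 124 and 97.7 CPM at KO day 3, and 129, 157 and 93.4 CPM in controls. Every KO day 4 library lay below all 6 others. Hadha fell by 1.08 on the log2 scale against control (SE 0.25, edgeR adjusted p = 0.013) and by 1.01 against KO day 3 (SE 0.25, edgeR adjusted p = 0.028). Hadhb, singled out after its values were seen, was at 9.49, 10.5 and 1.34 CPM at KO day 4, 12.4, 13.9 and 13.4 CPM at KO day 3, and 12.1, 17.5 and 10.6 CPM in controls. Its KO day 4 libraries also lay below all others, with replicate 3 far below replicates 1 and 2, and its log2 fold change of -0.88 was not called (SE 0.49, edgeR adjusted p = 0.21). The ratio of Hadha to Hadhb CPM was 7.80, 6.23 and 29.5 at KO day 4, 11.3, 8.93 and 7.31 at KO day 3, and 10.7, 8.94 and 8.85 in controls. The ratio of 29.5 in KO day 4 replicate 3 rests on 177 Hadha and 6 Hadhb counts, with an exact 95% binomial interval of 13.3 to 81.5 that covers counting error only.

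The carnitine shuttle moves long-chain acyl groups across the mitochondrial membranes. Cpt1a, which makes the acylcarnitine and sets the rate of entry (chromosome 19, 3322334 to 3385733), was at 39.7, 16.1 and 15 CPM at KO day 4, 49.2, 60.6 and 40.6 CPM at KO day 3, and 64.1, 91.0 and 35.9 CPM in controls. KO day 4 replicate 1 lay above control replicate 3, so these groups overlapped, and all KO day 4 libraries lay below KO day 3. The log2 fold change at KO day 4 was -1.41 against control (SE 0.40, edgeR adjusted p = 0.028) and -1.07 against KO day 3, which was not called (SE 0.40, edgeR adjusted p = 0.098).

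Cpt2, which returns the acyl group to coenzyme A inside the mitochondrion, was at 27.5, 14 and 12.8 CPM at KO day 4, 48.1, 45.2 and 31.3 CPM at KO day 3, and 44.3, 54.8 and 26.9 CPM in controls. The overlap was again between KO day 4 replicate 1 and control replicate 3. Cpt2 fell at KO day 4 by 1.2 on the log2 scale against control (SE 0.33, edgeR adjusted p = 0.027) and by 1.18 against KO day 3 (SE 0.33, edgeR adjusted p = 0.042). Slc25a20, the translocase that exchanges acylcarnitine for carnitine, was at 13.0, 8.11 and 11.4 CPM at KO day 4, 29.1, 21.7 and 12.7 CPM at KO day 3, and 35.9, 35.5 and 15.4 CPM in controls. KO day 4 lay below the controls, and the third library of the KO day 3 and of the control group stood well below its other two. It fell at KO day 4 by 1.41 on the log2 scale (SE 0.38, adjusted p = 0.023 by edgeR). At KO day 3 against control the 3 shuttle genes had log2 fold changes of -0.34, -0.02 and -0.46 (Cpt1a, Cpt2, Slc25a20), none called.

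Etfa and Etfb encode the subunits of the electron transfer flavoprotein, and Etfdh the oxidoreductase that hands its electrons to ubiquinone. Etfa was at 75.8, 71.5 and 56.6 CPM at KO day 4, 124, 125 and 97.6 CPM at KO day 3, and 123, 104 and 89.8 CPM in controls. All KO day 4 libraries lay below the others, and it fell by 0.63 on the log2 scale against control (SE 0.18, edgeR adjusted p = 0.028) and by 0.76 against KO day 3 (SE 0.18, edgeR adjusted p = 0.021). Etfdh was at 18.3, 16.4 and 33.4 CPM at KO day 4, 21.1, 35.3 and 23.4 CPM at KO day 3, and 41.9, 50.7 and 41.4 CPM in controls. Its knockout groups overlapped each other and lay below the controls. The log2 fold change was -0.99 at KO day 4 (SE 0.28, edgeR adjusted p = 0.030) and -0.75 at KO day 3 (SE 0.28, edgeR adjusted p = 0.22). Etfb was at 100.4, 81.4 and 102 CPM at KO day 4, 198, 104 and 80.6 CPM at KO day 3, and 149, 115 and 70.6 CPM in controls. These groups overlapped, and the log2 fold change at KO day 4 was -0.24, with a 95% interval from -0.96 to 0.48 (edgeR adjusted p = 0.64).

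**Figure D3:**
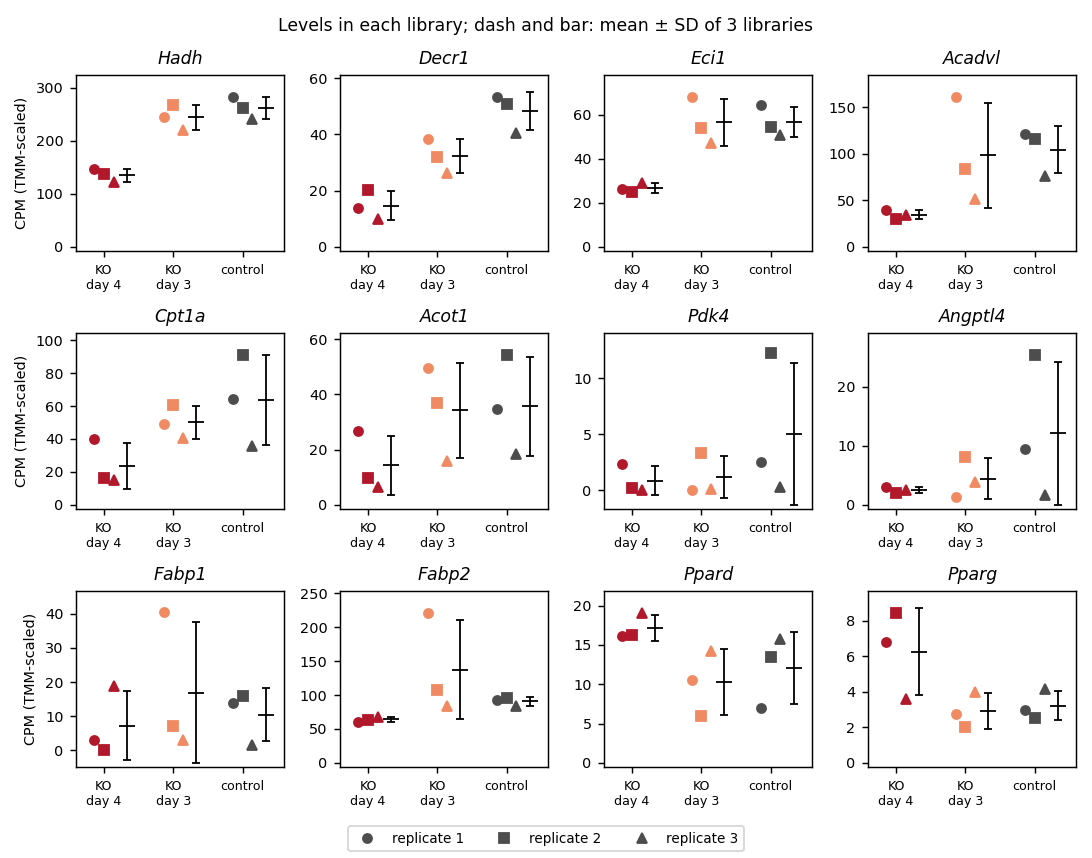
CPM in each library for 12 of the genes, with group mean ± SD (n = 3) beside the points; symbols give the replicate number. Hadh, Decr1, Eci1 and Acadvl show KO day 4 below both other groups, Cpt1a and Acot1 overlap the controls, and Pdk4, Angptl4 and Fabp1 show groups that spread widely.

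Acyl-CoA synthetases charge fatty acids with coenzyme A and thioesterases release it. Acsl1 was at 21.2, 23.1 and 14.6 CPM at KO day 4, 29.3, 17.6 and 33.8 CPM at KO day 3, and 33.8, 47.7 and 39.8 CPM in controls. KO day 4 lay below the controls and overlapped KO day 3, and the log2 fold change was -1.04 (SE 0.27, edgeR adjusted p = 0.019). Acsl5, the synthetase abundant in intestinal epithelium, was at 84.5, 67.1 and 66.5 CPM at KO day 4, 87.7, 86.9 and 102 CPM at KO day 3, and 87.6, 82.4 and 91.9 CPM in controls. KO day 4 overlapped the controls, and the log2 fold change of -0.26 had a 95% interval from -0.59 to 0.07 (edgeR adjusted p = 0.24).

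Acot1 and Acot2, the cytosolic and the mitochondrial acyl-CoA thioesterase, are near-identical neighbours on chromosome 12. In their annotated transcripts 24.5% of the 50-base words of Acot2 occur in Acot1 and 13.6% of those of Acot1 in Acot2, so their counts are uncertain. Acot1 was at 26.6, 9.86 and 6.49 CPM at KO day 4, 49.6, 37.1 and 15.8 CPM at KO day 3, and 34.7, 54.3 and 18.4 CPM in controls. Acot2 was at 3.40, 2.70 and 0 CPM at KO day 4, 2.13, 7.59 and 2.3 CPM at KO day 3, and 6.91, 13.1 and 3.10 CPM in controls. All 3 groups overlapped for both genes. Their log2 fold changes at KO day 4 were -1.29 (SE 0.55, edgeR adjusted p = 0.11) and -1.83 (SE 0.84, edgeR adjusted p = 0.14). Neither gene passed the test in any comparison.

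Among the PPAR targets, Plin2, which coats lipid droplets (chromosome 4, 86648386 to 86670060), was at 28.2, 18.6 and 10.7 CPM at KO day 4, 41.3, 40.7 and 26.9 CPM at KO day 3, and 46.6, 42.1 and 38.1 CPM in controls. KO day 4 lay below the controls, and Plin2 fell by 1.12 on the log2 scale (SE 0.30, adjusted p = 0.022 by edgeR). Pdk4, the kinase that inhibits pyruvate dehydrogenase, was at 2.34, 0.159 and 0 CPM at KO day 4, 0, 3.34 and 0.106 CPM at KO day 3, and 2.52, 12.2 and 0.269 CPM in controls. Angptl4, a secreted inhibitor of lipoprotein lipase, was at 3.05, 1.91 and 2.46 CPM at KO day 4, 1.28, 8.06 and 3.86 CPM at KO day 3, and 9.36, 25.4 and 1.57 CPM in controls. For both genes control replicate 2 was the highest of the 9 libraries and control replicate 3 lay among the knockout libraries; the highest control was 45.4 times the lowest for Pdk4 and 16.2 times for Angptl4. Their log2 fold changes at KO day 4, -2.41 and -2.28, were among the most negative of the set and did not pass the test (SE 1.62 and 0.86, edgeR adjusted p = 0.30 and 0.083).

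Fabp1 and Fabp2 encode the liver-type and intestinal fatty acid binding proteins of the enterocyte. Fabp1 was at 2.93, 0 and 18.8 CPM at KO day 4, 40.7, 7.15 and 2.94 CPM at KO day 3, and 13.7, 15.9 and 1.57 CPM in controls. The groups overlapped throughout, and no comparison was called; the 95% interval of the log2 fold change at KO day 4 ran from -3.27 to 2.06. Fabp2 was at 60.9, 63.8 and 67.4 CPM at KO day 4, 221, 107 and 84.1 CPM at KO day 3, and 93.2, 95.5 and 83.1 CPM in controls. KO day 4 lay below both other groups, and KO day 3 replicate 1 stood well above every control. Fabp2 was lower at KO day 4 than at KO day 3 by a log2 fold change of -1.10 (SE 0.29, edgeR adjusted p = 0.033), while the value against control was -0.50 (SE 0.29, edgeR adjusted p = 0.23). Cd36, a fatty acid transporter, had 10 counts over the 3 KO day 4 libraries, 6 over KO day 3 and 10 over the controls, and was not tested.

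PPAR heterodimers bind a direct repeat of the half-site AGGTCA with 1 base between the copies. The RefSeq promoter windows (GRCm38.p6, 250 bases before to 50 after the start) of 32 of the 35 genes were searched on both strands for AGGTCANAGGTCA with at most 2 mismatches in the 12 letters other than N; Angptl4, Decr1 and Acaa2 had no window. A match was found for 6 of the 32 genes, or 18.8%, and for 4.4% of the 27025 genes with a window. The 5 matches that lie before the start are shown with 8 bases on each side, on the strand of the gene. Capitals mark the 13 bases of each match, including the base between the copies and any mismatched letters. Where the match is to the opposite strand the capitals read as its reverse complement.
Plin2, chr4:86670264-86670292, minus strand: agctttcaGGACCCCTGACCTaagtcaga
Cd36, chr5:17835939-17835967, minus strand: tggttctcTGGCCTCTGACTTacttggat
Fabp1, chr6:71199804-71199832, plus strand: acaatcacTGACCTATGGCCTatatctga
Echs1, chr7:140116484-140116512, minus strand: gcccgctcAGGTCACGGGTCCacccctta
Etfa, chr9:55512300-55512328, minus strand: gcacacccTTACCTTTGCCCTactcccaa

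The Fabp1 match has 1 mismatch and the others have 2, and the sixth match, in Slc25a20, lies after the start. Of these 6 genes Plin2, Echs1, Etfa and Slc25a20 fell at KO day 4, Fabp1 was not called and Cd36 was not tested. In the whole set 19 of the 34 tested genes fell, beside 11.5% of all tested genes. A link between a match and the fall was not tested. A match describes these letters and does not show that a factor binds there.

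Among the factors, Ppara, the receptor best known from liver fasting, was at 1.17, 0.159 and 0 CPM at KO day 4, 0, 2.3 and 0.354 CPM at KO day 3, and 2.6, 3.11 and 2.34 CPM in controls. The knockout libraries of both days lay below all controls, but its 11 counts over KO day 4 left the log2 fold change of -2.40 with a 95% interval from -5.15 to 0.36 (edgeR adjusted p = 0.18). Ppard was at 16.2, 16.2 and 19.0 CPM at KO day 4, 10.6, 5.94 and 14.2 CPM at KO day 3, and 6.95, 13.5 and 15.7 CPM in controls. All KO day 4 libraries lay above the others, with a log2 fold change of 0.51 against control that did not pass the test (SE 0.36, edgeR adjusted p = 0.33).

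Pparg, the receptor of adipocytes and of colon epithelium, was at 6.80, 8.43 and 3.58 CPM at KO day 4, 2.73, 2.04 and 4.01 CPM at KO day 3, and 2.99, 2.54 and 4.13 CPM in controls. KO day 4 replicates 1 and 2 stood above every other library and replicate 3 within the control range, with a log2 fold change of 0.97 (SE 0.43, edgeR adjusted p = 0.13). Without KO day 4 replicate 3 the same test called Pparg higher, at 1.23 on the log2 scale (edgeR adjusted p = 0.0497). Ppargc1a, the coactivator of mitochondrial biogenesis, was at 3.87, 2.54 and 1.57 CPM at KO day 4, 1.28, 2.90 and 1.74 CPM at KO day 3, and 2.83, 3.77 and 1.08 CPM in controls, and its groups overlapped. Scaled to library size alone, Pparg, Ppard and Ppargc1a turned to -0.90, -1.44 and -1.76 at KO day 4 against control, in a scaling that moved the median of all tested genes to -1.95.

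Levels were also compared as RPKM, CPM per kilobase of the union of a gene's annotated exons, so the order depends on the annotation too. Etfb, Fabp2, Acaa2, Etfa and Hadh had the highest mean levels of the set at KO day 4, at 81.3, 66.4, 50.9, 37.1 and 27.2 RPKM. In controls these 5 genes were also the highest, at 95.7, 93.9, 124, 57.4 and 52.6 RPKM. Ppara at 0.116 and Cd36 at 0.186 RPKM were the lowest at KO day 4. The order of the top 3 in controls rests on groups that overlap: the control libraries of Etfb spread from 70.6 to 149 CPM.

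The spread within groups was not the same for all genes. Control replicate 3 was the lowest control for 26 of the 34 tested genes, KO day 3 replicate 3 the lowest of its group for 23 and KO day 4 replicate 3 the lowest of its group for 21. KO day 4 replicate 1 was the highest of its group for 21 genes. Without KO day 4 replicate 3 and KO day 3 replicate 1, 18 genes were called lower and 1 higher at KO day 4 against control, 3 lower at KO day 3 against control and 5 lower at KO day 4 against KO day 3, where edgeR called 16%, 3.34% and 4.93% of all tested genes lower. Leaving out control replicate 2 left 7 genes called lower at KO day 4, leaving out control replicate 1 left 10, and leaving out KO day 4 replicate 2 left 11. In the same fits 5.43%, 5.9% and 8.29% of all tested genes were called lower, against 11.5% with every library. At KO day 4 against KO day 3 the number called lower was 4 without KO day 3 replicate 2, 5 without KO day 4 replicate 2 and 6 without KO day 4 replicate 3, where 2.15%, 2.9% and 3.63% of all tested genes were called lower, against 6.03% with every library. Acadm, Acads, Acadvl, Hadh, Echs1, Eci1 and Decr1 were called lower at KO day 4 against control under each of the 19 alternative settings run.

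Markers of other cell types moved with the KO day 4 group. Against control, 11.1% of all tested genes were called higher at KO day 4 and 11.5% lower. The summed level of 4 stem cell markers (Lgr5, Olfm4, Ascl2 and Smoc2) was 1639 to 4376 CPM at KO day 4, 6746 to 9160 CPM at KO day 3 and 8747 to 9216 CPM in controls, and 3 of the 4 fell at KO day 4. Most of each sum was Olfm4, with means of 3177, 7505 and 8659 CPM in these groups. Lgr5 was the marker not called, with a log2 fold change of -0.71 at KO day 4 (edgeR adjusted p = 0.092). Of 7 Paneth cell markers all 7 were higher at KO day 4, with sums of 71740 to 92690 CPM, 17930 to 26700 CPM at KO day 3 and 8408 to 23740 CPM in controls. Mast cell markers summed to 271 to 798 CPM at KO day 4, 10.6 to 104 CPM at KO day 3 and 0.045 to 0.194 CPM in controls; all 6 tested were higher at KO day 4, and Fcer1a, Ms4a2, Mcpt1 and Mcpt2 had no count in controls. Tuft cell markers summed to 88.4 to 244 CPM at KO day 4, 6.81 to 13.0 CPM at KO day 3 and 3.11 to 4.46 CPM in controls, and 5 of 6 were higher. Enteroendocrine markers summed to 196 to 297 CPM, 49.1 to 84.8 CPM and 19.1 to 55.1 CPM in the same groups, and 7 of 8 were higher. Among enterocyte markers, the cell type of Fabp1 and Fabp2, 4 of 11 tested fell and 1 rose, with sums of 172 to 270 CPM at KO day 4, 316 to 398 CPM at KO day 3 and 363 to 407 CPM in controls. Goblet markers summed to 840 to 1427 CPM at KO day 4, 523 to 942 CPM at KO day 3 and 501 to 730 CPM in controls, with 3 of 6 higher and 1 lower, and immune markers to 37.7 to 110 CPM, 3.21 to 21.1 CPM and 0.719 to 2.37 CPM in the same groups, with all 5 tested higher. The part of these cell types in the levels of the 35 genes was not tested.

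Genes of the same and of related pathways outside the set were listed for comparison. The first list, other acyl-CoA oxidation, joins mitochondrial fatty acid oxidation with the breakdown of branched-chain and other acyl groups from amino acids. Of its 35 tested genes, 13 fell and 2 rose at KO day 4 against control by edgeR, and their median log2 fold change was -0.68. The 13 are therefore not all genes of fatty acid oxidation. Of all tested genes 11.5% were called lower and 11.1% higher, with a median of -0.06. Acsf2, a synthetase for medium chains, was at 5.74, 4.61 and 4.93 CPM at KO day 4, 8.61, 8.97 and 11.4 CPM at KO day 3, and 15.7, 13.3 and 15.9 CPM in controls, a log2 fold change of -1.55 at KO day 4 (SE 0.25, edgeR adjusted p = 0.0019). Gcdh, which oxidises glutaryl-CoA from lysine, was at 15.1 ± 0.97 CPM at KO day 4, 19.3 ± 3.34 CPM at KO day 3 and 34.4 ± 2.53 CPM in controls (SD, n = 3), with -1.19 at KO day 4 (SE 0.19, edgeR adjusted p = 0.0022). Slc22a5, the plasma membrane carnitine transporter, was at 4.80 ± 1.30 CPM at KO day 4, 8.26 ± 2.91 CPM at KO day 3 and 14.8 ± 2.23 CPM in controls (SD, n = 3), with -1.61 at KO day 4 (SE 0.32, edgeR adjusted p = 0.0062). Echdc3, an enoyl-CoA hydratase-like gene, had no count in the KO day 4 libraries and 170 in the controls, at least 13.96-fold lower when the KO day 4 libraries together are set at a floor of 3 counts. The median of this list could not change with Echdc3 at that bound, because the gene stays below the median either way. The genes that rose were Acot7 and Acot9, thioesterases named after their values were seen, at 0.76 and 1.52 on the log2 scale.

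Of 22 tested further PPAR targets, 6 fell and 2 rose at KO day 4, and their median log2 fold change was -0.89. Fads2, the delta-6 desaturase, fell by 1.13 (SE 0.18, edgeR adjusted p = 0.0018) and Slc27a2, a fatty acid transport protein, by 1.66 (SE 0.27, edgeR adjusted p = 0.0024). Me1, cytosolic malic enzyme, was at 17.9, 17.8 and 12.8 CPM at KO day 4, 1.02, 3.29 and 5.92 CPM at KO day 3, and 2.41, 1.78 and 0.719 CPM in controls. Every KO day 4 library of Me1 lay above all others, and it rose by 3.30 on the log2 scale (SE 0.55, adjusted p = 0.0033 by edgeR). Of 22 tested PPAR partners and coregulators 4 rose and 2 fell, with a median of 0.67, where 11.1% of all tested genes were called higher and 11.5% lower. Ep300, a histone acetyltransferase and PPAR coactivator, rose by 1.10 (edgeR adjusted p = 0.0077) and Lpin1, a phosphatidate phosphatase and coactivator, by 1.96 (edgeR adjusted p = 0.016). Rxrb, a retinoid X receptor, fell by 0.98 (edgeR adjusted p = 0.0085). The other gene that fell was Tfam, by 0.74 (edgeR adjusted p = 0.015). Tfam is in this list although it is the mitochondrial transcription factor and not itself a partner or coregulator of a PPAR. No gene of these 3 lists was called at KO day 3 against control, where 0.44% of all tested genes were called. Fold changes there were below 0 for 31 of 35 genes of other acyl-CoA oxidation, 17 of 22 further PPAR targets and 8 of 22 partners. The medians of these lists were -0.62, -0.60 and 0.06, beside -0.02 over all tested genes. A fall of any list as a whole at KO day 3 was not tested.

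**Figure D4:**
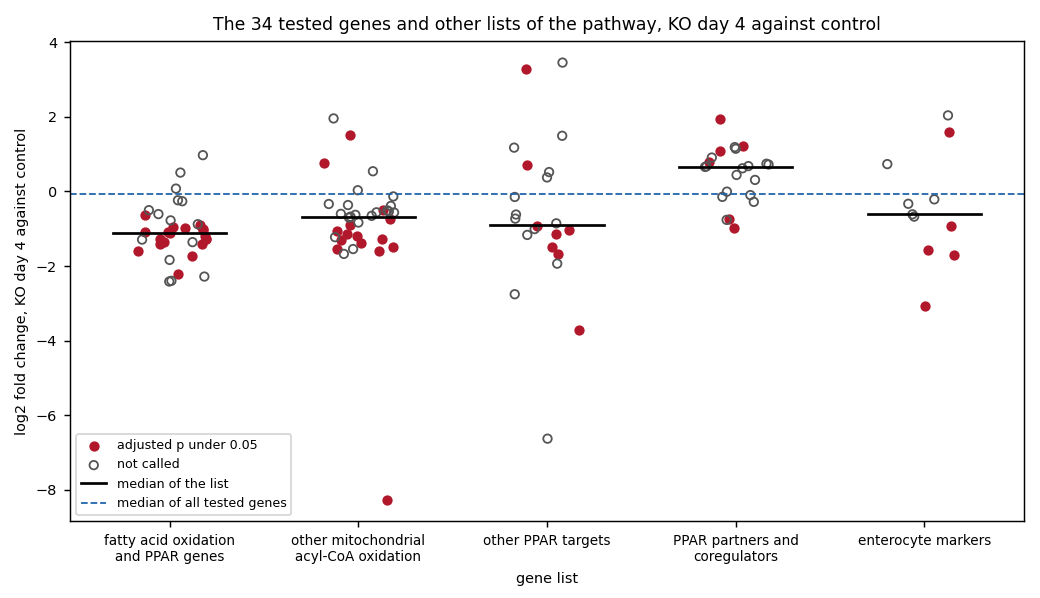
Log2 fold changes at KO day 4 against control for the 34 tested genes, 3 related lists and enterocyte markers, 1 point per tested gene. Filled points have an adjusted p under 0.05 (edgeR). A bar marks the median of each list and a dashed line the median of all tested genes. The medians are -1.10 for the 34 genes, -0.68 for other acyl-CoA oxidation, -0.89 for other PPAR targets and 0.67 for PPAR partners. The points at -8.26 (Echdc3) and -6.63 (Vnn1) are genes with no count at KO day 4, whose fitted values have no fixed size.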

How the data were processed

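The table deposited by the authors holds raw counts for each Ensembl gene in 9 libraries, not normalized. Per the labels' protocols, total RNA was DNase-treated and mRNA was isolated for the libraries. The submitters' processing notes name HISAT2 2.0.4 and build GRCm38. How reads were counted, with which strand setting and which annotation, is not given in the sources used here. Identifiers were named through GENCODE M21, which matched 51933 of 57180 rows. Samples were grouped by their titles.

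Counts were tested with edgeR 4.0.16 (R 4.3.3): filterByExpr at its defaults (10 counts, 15 in all), TMM factors, 1 quasi-likelihood fit of all 9 libraries, two-sided F-tests, and Benjamini-Hochberg adjustment over 13405 genes at 0.05. The script was tested on simulated data. Fold changes are log2 with standard errors; intervals are at 95%. The 35 genes, the lists and the rule for named genes were chosen with earlier results of these data known. By that rule, values per library are given for genes called in any comparison, the factors, Acot1, Acot2, Fabp1 and Fabp2; ranges stand for the rest, with values for the 2 highest and 2 lowest fold changes at KO day 4; from other lists, up to 4 genes with the smallest adjusted p. Alternatives were RLE factors, library size alone, nuclear genes only, no filter, a mean of at least 5 CPM, DESeq2 1.42.0, limma 3.58.1 voom with quality weights, fits of 2 groups, a replicate block and leaving out libraries. Promoter sequences are RefSeq's (GRCm38.p6). The floor of 3 counts covers counting error only. Some genes of the other lists are not reported here.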

Additional observations from a re-analysis of the deposited data

Results flagged for a closer look

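The 10 genes below were marked because their effect at KO day 4 differed from that at KO day 3 by the edgeR test of the difference itself, KO day 4 against KO day 3, in which the shared controls cancel. The differences on the log2 scale were -1.52 for Acadvl, -1.44 for Acaa2, -1.18 for Cpt2, -1.13 for Decr1, -1.10 for Fabp2, -1.08 for Eci1, -1.01 for Hadha, -0.85 for Hadh, -0.76 for Etfa and -0.68 for Echs1. Of all tested genes 6.03% were called lower in this comparison. In each of the 10, all 3 KO day 4 libraries lay below all 3 KO day 3 libraries, beside 17% of all tested genes. The 10 were picked by a test on these same libraries, so this order is not a separate result. Hadh and Eci1 were called in this comparison under each of the 19 alternative settings, and Cpt2 in 10 of them.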

How the results depend on the processing

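At KO day 4 against control 19 genes of the set were called lower and none higher with TMM and all libraries. The number called lower was 7 to 20 when single libraries were left out, and 1 gene, Pparg, was called higher without KO day 4 replicate 3, without this library and KO day 3 replicate 1 together, and with limma voom. Scaling by library size alone called 32 of the 34 genes lower, where it called 80.3% of all tested genes lower. In either direction it called 11057 of all genes, 97.4% of them lower where TMM gave 50.9%. It moved the median of all genes to -1.95 and that of the set to -2.96, and turned Pparg to -0.90, Ppard to -1.44 and Ppargc1a to -1.76. Against KO day 3 it turned Acad11 to -1.17, Acad12 to -1.26, Ppargc1a to -1.01, Ppard to -0.81 and Pparg to -0.39, and at KO day 3 against control Acsl5 to -0.29, Etfa to -0.22, Acaa2 to -0.18 and Etfb to -0.12. All genes called numbered 1588 to 3839 when single libraries were left out, lowest without control replicate 2.

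At KO day 4 against KO day 3 the set had 28 genes called lower by library size alone, where 69.5% of all tested genes were called lower. In either direction this scaling called 9508 of all genes, 98% of them lower where TMM gave 48%. The set had 6 genes called lower in a fit of these groups alone (806 of all genes), 5 without KO day 4 replicate 3 and KO day 3 replicate 1, and 4 to 12 when single libraries were left out (648 to 1802 of all genes). DESeq2 called 2879 of all genes. At KO day 3 against control the set had 4 genes called lower by library size alone (518 of all genes, 92.5% of them lower where TMM gave 67.8%), 1 with no filter (317), 3 with DESeq2 (876), 8 with limma voom (1423), 2 in a fit of these groups alone (337), 3 without those 2 libraries (646) and 0 to 1 without single libraries (0 to 345, the lowest without control replicate 2 or KO day 3 replicate 3 and the highest without KO day 4 replicate 3). The cause of these changes was not tested.

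The main test did not pair samples by replicate number, and a replicate block was run as an alternative. In no pair of groups did every same-numbered pair have a residual correlation over 0.1. Between KO day 3 and control the 3 same-numbered pairs were at 0.122, 0.0624 and 0.178 and the 6 other pairs at -0.137 to -0.0124, so each library correlated best with its own number, a hint from the data and not the design. Same-numbered pairs with KO day 4 were at -0.06 to 0.022. With the replicate block, the genes of the set called lower numbered 21 at KO day 4 and 0 at KO day 3 against control (2680 and 9 of all genes called), and 12 between the knockout groups (1537 of all genes). Genes with few counts at KO day 4, such as Ppara with 11 and Pdk4 with 21, could show only large differences.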
